A study of Drosophila melanogaster with 13 samples.

Results

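Hr38, sr (stripe), kay (kayak) and Jra (Jun-related antigen) are transcription factor genes known for rapid induction by neuronal activity or stress, and their CREB- and CRTC-binding sites in the mushroom bodies (MBs) of Drosophila melanogaster are described here. The members are the regions whose gene symbol in the authors' table of CREB/CRTC-binding sites is 1 of these 4 symbols. This gave 15 of the 4995 regions, namely 4 at Hr38, 4 at sr, 7 at kay and 0 at Jra. Hr38 was chosen on its CREB value in the authors' comparison of spaced-trained with naive flies, and the other genes were chosen by name, with earlier results of these data known. Those comparison values are not used, and the peak scores and positions below come from the same libraries. The binding data hold no transcript levels, so whether these genes were induced in these flies was not measured.

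Chromatin immunoprecipitation followed by sequencing (ChIP-seq) was performed with anti-CREB or anti-CRTC antibodies on MB nuclei from flies 1 day after spaced training and from naive flies, with 3 libraries per protein and condition, and 1 library of input DNA from naive flies served as the background for peak calling. The label gives the strain of all libraries as CS10, and spaced training pairs an odour with electric shocks in separate sessions. All flies carried a FLAG-tagged KASH domain, which anchors the tag in the nuclear membrane, driven in the MBs by MBp-LexA, and nuclei of many flies were pooled for each preparation. This driver labels the α/β and γ lobes strongly and the α′/β′ lobe weakly, so that the sites come from a mixture of Kenyon cells. The deposited files hold 1 list of sites per protein, which combines replicates, and their columns name no condition for a site. The authors report the sites in their account of binding after spaced training, without stating whether peaks of naive flies were included. No value could therefore be assigned to a single library, or with certainty to a condition. Replicate error cannot be given for any site, and the depth behind a site is unknown.

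CREB is a DNA-binding transcription factor that recognizes the cAMP response element. CRTC is its coactivator, which is held in the cytoplasm in resting cells and enters the nucleus after calcium and cAMP signalling, where it binds CREB. Genes of the immediate early class are switched on by such signals without new protein synthesis, and many encode transcription factors that act on later genes. Hr38 encodes the single fly member of the NR4A family of orphan nuclear receptors. sr encodes a zinc-finger protein of the EGR family, best known in flies for tendon cell development. kay encodes the fly Fos and Jra the fly Jun, basic leucine zipper proteins that pair to form AP-1, and AP-1 acts upstream of CREB in long-term plasticity at the fly neuromuscular synapse.

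Below, a CRTC-binding site is termed a region if the gap between its nearest edge and that of a CREB-binding site is 200 bp or less. Coordinates are those of the files, in the dm3 build. The peak score comes from the authors' peak caller and has no physical unit, so it serves only to rank the sites within the list of its own protein. The CRTC list held 5990 sites with scores of 1.51 to 123 and a median of 4.21, and the CREB list held 7243 sites with scores of up to 63.6 and a median of 3.67. The table also gives each region a signed distance to a transcription start site (TSS), with negative values upstream. All 4995 regions of the table were found in the CRTC list with the same start and end.

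The 4 regions of Hr38 covered the TSS and its surroundings on chromosome arm 2L. Their distances pointed to a single TSS at about 20714588, to within 1 bp, for a gene read towards lower coordinates. The strongest region, at 20714584 to 20714744, covered this TSS. It had a CRTC score of 8.49, above 82.9% of all CRTC-binding sites, with a false discovery rate of 0.000992. The CREB-binding site within it, at 20714622 to 20714690, was 68 bp wide and had a score of 5.15, above 68.1% of all CREB-binding sites. Thus the promoter region of Hr38 stood higher in the CRTC list than in the CREB list, by 14.8 percentage points.

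The other regions of Hr38 were weaker. The region at 20716002 to 20716078, 1414 bp upstream of the TSS, had a CRTC score of 2.11, and its CREB-binding site at 20716044 to 20716088 had a score of 1.56. These scores were above 8.71% of CRTC-binding sites and only 1.39% of CREB-binding sites, so that this pair lay near the lower end of both lists. The region at 20720108 to 20720240, 5520 bp upstream, had a CRTC score of 3.89 and a CREB score of 3.15. The region at 20706018 to 20706142 lay 8445 bp downstream of the TSS, with a CRTC score of 4.72 and a CREB score of 4.33, the second highest of the gene for both proteins. No region of another gene lay among these 4, and the nearest ones in the table were 143838 bp away on the side of lower coordinates (mir-4973) and 38564 bp away on the other side (dia). Within 10 kb of the Hr38 regions the lists held no further site of either protein. Within 20 kb a single additional CREB-binding site was found, at 20734196 to 20734264 and 19608 bp upstream of the TSS, with a score of 2.60 and no CRTC-binding site nearer than 13956 bp.

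**Figure D1:**
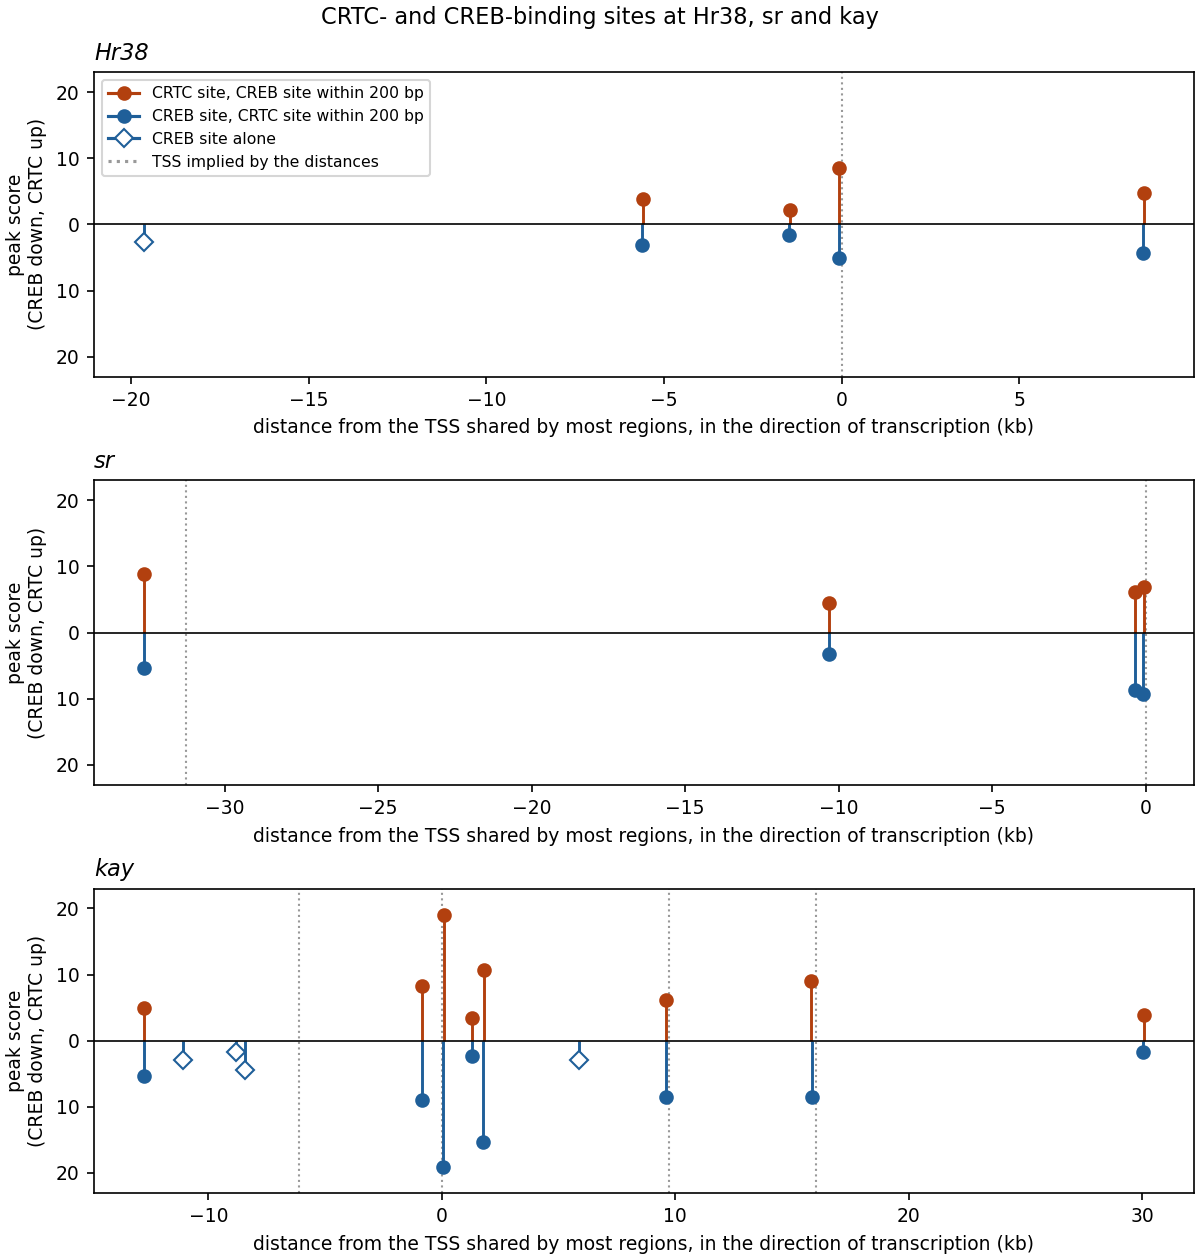
Peak scores (no unit) of CRTC-binding sites, drawn upwards, and CREB-binding sites, drawn downwards, against the distance in kb from the TSS shared by most regions of Hr38 (top), sr (middle) and kay (bottom), within 20 kb of their regions. Filled circles are sites with the other protein within 200 bp, open diamonds are CREB-binding sites alone, and dotted lines are TSSs implied by the distances. The highest stems are those of kay at its main TSS (18.9 for CRTC and 19.2 for CREB), and the pair at the right end of the kay map belongs to CG7834.

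For sr, on chromosome arm 3R, the distances implied a pair of TSSs, at about 13916524 and 13947787, for a gene read towards higher coordinates. At the second of these, the regions at 13947391 to 13947487 and 13947664 to 13947780 lay 300 bp and 7 bp upstream, with only 177 bp between them. Just 4.13% of the gaps between successive regions in the table were shorter. Their CRTC scores were 6.08 and 6.86, and their CREB scores were 8.75 and 9.30. In both, the CREB score stood higher in its list than the CRTC score did, by 15.0 and 11.3 percentage points. The CREB-binding site of the first, at 13947337 to 13947527, was 190 bp wide and enclosed the whole CRTC-binding site.

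The strongest CRTC-binding site of sr was not at this promoter. It lay at 13915144 to 13915194, 1330 bp upstream of the other implied TSS, and was 50 bp wide. It had a CRTC score of 8.78, above 84.2% of the list, and a CREB score of 5.42, above 69.9%. Here the order was the opposite of that at the downstream TSS, with the CRTC score 14.3 percentage points higher in its list. The remaining region of sr, at 13937428 to 13937546 and 10241 bp upstream of the downstream TSS, had scores of 4.42 for CRTC and 3.22 for CREB. The sr regions spanned 32636 bp, the longest stretch of the 3 genes. The lists held 0 further sites of either protein within 20 kb of them, and the nearest regions of other genes were those of cpo, 145430 bp away, and PP2A-B', 45720 bp away.

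kay had the most regions and the strongest sites. Its 7 regions, on chromosome arm 3R, implied 4 TSSs for a gene read towards higher coordinates, at about 25592496, 25598616, 25608332 and 25614657. Regions lay within 500 bp of 3 of these TSSs. The strongest was at 25598642 to 25598774, 26 bp downstream of the TSS at 25598616. Its CRTC score of 18.9 ranked 105 among all CRTC-binding sites and was above 98.2% of them. The CREB-binding site there, at 25598582 to 25598706, had a score of 19.2, which ranked 165 and was above 97.7% of all CREB-binding sites. Both had a false discovery rate listed as 0. The centre of the CREB-binding site lay 64 bp from that of the CRTC-binding site, the largest such offset among the member regions.

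3 more regions of kay surrounded this TSS. The region at 25597726 to 25597846, 769 bp upstream, had a CRTC score of 8.27 and a CREB score of 9.02. The region at 25600378 to 25600462, 1762 bp downstream, was the second strongest of kay for both proteins, with a CRTC score of 10.7 and a CREB score of 15.4, above 89.7% and 95.8% of the lists. Between it and the TSS lay the weakest region of kay, at 25599876 to 25599900, only 24 bp wide, with a CRTC score of 3.42 and a CREB score of 2.38. Strong and weak sites were thus interleaved within a short stretch.

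The later TSSs of kay each had a region of intermediate strength. At 25608176 to 25608304, 28 bp upstream of the TSS at 25608332, the CRTC score was 6.09 and the CREB score 8.57, with the CREB score 14.4 percentage points higher in its list. At 25614398 to 25614466, 191 bp upstream of the TSS at 25614657, the CRTC score was 8.97 and the CREB score 8.52, which stood within 0.871 percentage points of each other. The first implied TSS, at 25592496, had no region within 500 bp. Its nearest region, at 25585824 to 25585904, lay 6592 bp upstream with a CRTC score of 4.97 and a CREB score of 5.29.

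Within 10 kb of the regions of the 3 genes, CREB-binding sites with no CRTC-binding site within 200 bp were found only at kay. Of the 11 CREB-binding sites within 10 kb of its regions, 4 stood alone (36.4%), against 2182 of 7243 (30.1%) in the whole CREB list. 3 of the 4 lay upstream of the TSS at 25592496. They were at 25587500 to 25587576, 25589754 to 25589806 and 25590130 to 25590210, with scores of 2.91, 1.72 and 4.46, and the last lay 2286 bp from that TSS. The fourth, at 25604440 to 25604508 with a score of 2.91, lay 3824 bp upstream of the TSS at 25608332. The median score of all lone CREB-binding sites was 2.46, and that of CREB-binding sites near a CRTC-binding site was 4.56. There was no lone CRTC-binding site within 20 kb of the regions of Hr38, sr or kay, and the lists held 995 in all. A site that is not listed may still have bound protein below the threshold of the peak caller.

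Jra had no region in the table, also when its synonyms in the RefSeq gene table were searched. In the RefSeq gene order, 3 protein-coding genes, sut4, Jra and RpLP0-like, lie between CG2269 and 14-3-3zeta, which both have regions. The end of the CG2269 region at 5975066 and the start of the first 14-3-3zeta region at 5987151 on chromosome arm 2R were 12085 bp apart. The CREB-binding sites of the CG2269 region and the first 14-3-3zeta region reached into the ends of this interval. Otherwise the CRTC list held 0 sites there and the CREB list held 2, at 5984436 to 5984469 and 5984658 to 5984726. Their scores of 2.83 and 2.14 were above 34.5% and 17.3% of all CREB-binding sites, and the nearest CRTC-binding site was 2682 bp and 2425 bp away. Which of the 3 genes these sites are nearest to was not determined, because gene positions of the dm3 build were not used here. The lists thus held 7 regions at kay and none at Jra. Most genes are like Jra in this, since 2750 of 13962 protein-coding genes (19.7%) had a region. The kay regions spanned 28642 bp, and the length of the loci was not taken into account.

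Most genes in the table had fewer regions than Hr38, sr and kay. Of the 2833 genes in the table, 1719 (60.7%) had a single region, 236 (8.33%) had at least 4, as Hr38 and sr did, and 49 (1.73%) had at least 7, as kay did. With regions within 5000 bp of a TSS alone, Hr38 kept 2 regions and sr 3, and 1024 and 415 genes had at least as many. Counted in 1 kb windows, 434 genes had at least as many as sr and 30 at least as many as kay. The number of regions depends on the length of a locus and on how regions were assigned to genes, and no test was made of it. Ranked by the strongest CRTC score of each gene, kay was above 96.8% of the genes, sr above 75.8% and Hr38 above 74.0%. By the strongest CREB score beside a region, kay was above 94.7%, sr above 74.6% and Hr38 above 49.6% of the genes. By its promoter region, Hr38 was therefore close to the middle of the genes by CREB and in the upper part by CRTC. These ranks take the highest of 4 scores at Hr38 and sr and of 7 at kay, but a single score at 60.7% of genes. The highest of several scores tends to be larger, and the part of this in the ranks was not tested.

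**Figure D2:**
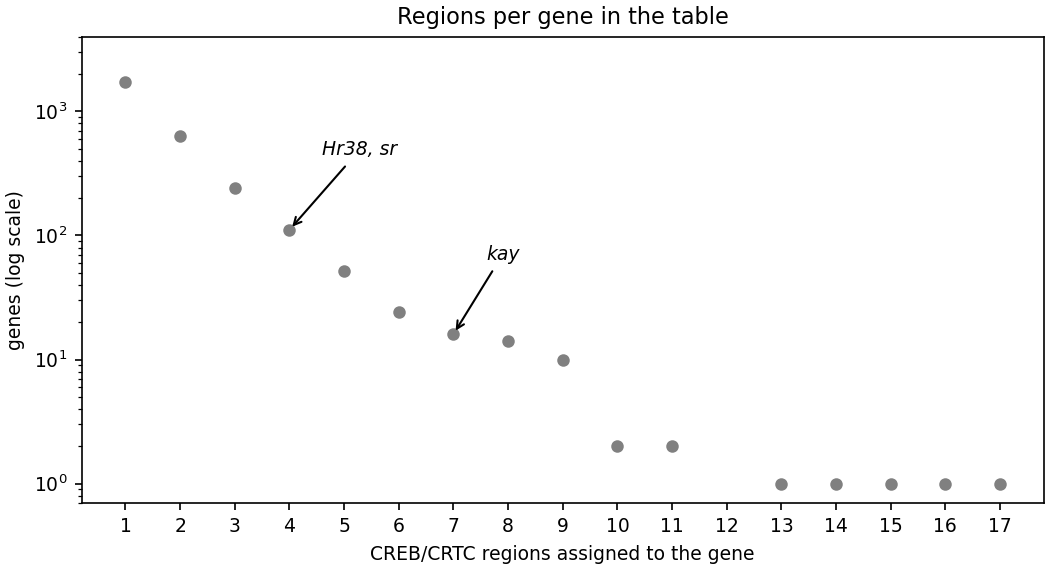
Number of genes (log scale) by the number of CREB/CRTC regions assigned to them in the table. Hr38 and sr are among the 111 genes with 4 regions and kay is among the 16 genes with 7 regions.

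Regions of the 3 genes lay farther from a TSS than most. 6 of the 15 (40.0%) were within 500 bp of a TSS, against 63.8% of all regions, and 4 of the 15 (26.7%) were beyond 5000 bp, against 8.43% of all regions. The 6 regions near a TSS had CRTC scores of 6.08 to 18.9 with a median of 7.67, and the 9 others had scores of 2.11 to 10.7 with a median of 4.72. The CREB scores had medians of 8.66 and 4.33. The ranges overlapped for both proteins. Over all regions the median CRTC score was 4.47 within 500 bp of a TSS and 5.02 farther away, and the median CREB score was 4.63 and 4.58. The regions of a gene share its chromatin and are not replicates, so these values describe the 15 regions and were not tested.

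Every region has a CREB-binding site within 200 bp by definition, so closeness of the sites was set by the selection. Their overlap at the 15 regions, none of which is at Jra, is given beside that of all regions. Each of the 15 regions shared bases with a CREB-binding site, against 90.4% of all 4995 regions, and 12 of them had at least 50% of their length covered, against 72.7% of all regions in the table. The centres of the sites were 2 to 64 bp apart at the member regions, with a median of 15 bp, against a median of 22 bp over all regions. CRTC scores were above the median of the CRTC list at 12 of the 15 member regions (80.0%), against 56.4% of all regions. For the CREB-binding sites beside them these numbers were 11 of 15 (73.3%) and 63.9%. By gene, the CRTC scores above the median were 2 of 4 at Hr38, 4 of 4 at sr and 6 of 7 at kay.

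The balance of CRTC and CREB differed from region to region within each gene. The CRTC score stood higher in its list than the CREB score did at 8 of the 15 member regions (53.3%), against 34.2% of all regions. The median difference over all regions was -4.21 percentage points, so equal places in both lists were not the typical case. The difference was positive at 3 of the 4 regions of Hr38. The exception, 8445 bp downstream of the TSS (-2.61 percentage points), was still above that median. At sr it was positive at the upstream pair of regions and negative at the pair next to the downstream TSS. At kay it ran from -14.4 to 13.3 percentage points. All 15 values were within the range that holds the middle 90% of the regions, -34.9 to 25.2 percentage points. Sign and size depend on the sites in each list, and 30.1% of CREB-binding sites stood alone. Among sites of both proteins that lie near each other, the strongest Hr38 scores exceeded 79.9% for CRTC and 57.2% for CREB. In the whole lists they exceeded 82.9% and 68.1%. Since the replicate error of a score is unknown, it cannot be said whether the regions of a gene differ in this balance beyond error.

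**Figure D3:**
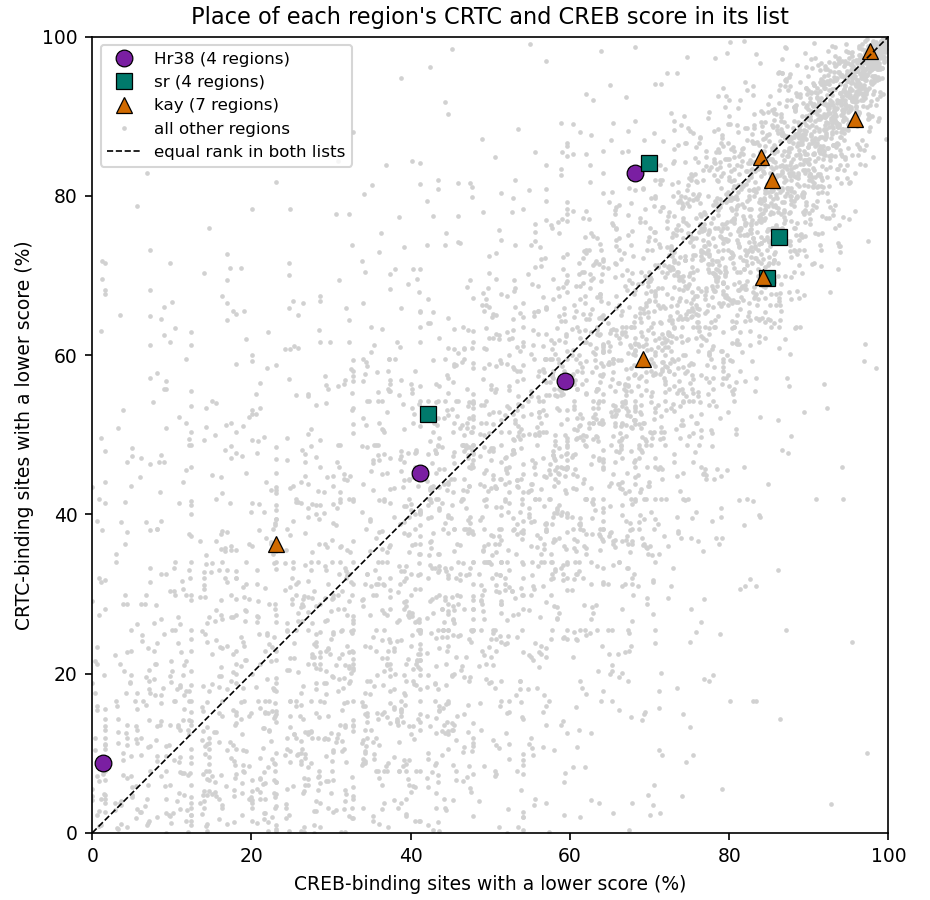
Each point is a region, placed by the share (%) of CREB-binding sites with a lower score than its CREB-binding site (x axis) and the share (%) of CRTC-binding sites with a lower score than its CRTC-binding site (y axis). The regions of Hr38, sr and kay are drawn large over all other regions, and the dashed line marks equal places in both lists, which 8 of the 15 members lie above.

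The genes most like Hr38 by the scores of their strongest CRTC- and CREB-binding sites were CG3764, CG30419 and CG42719, at distances of 0.02, 0.02 and 0.08 on the log2 scale of both scores. CG3764 had 6 regions, with strongest scores of 8.46 for CRTC and 5.08 for CREB. CG30419 had 1 region, with 8.42 and 5.22, and CG42719 had 2 regions, with 8.08 and 5.30. The likeness rests on 1 CRTC score and 1 CREB score per gene.

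A list of 18 further genes of the CREB, AP-1 and activity-induced pathways was set beside the members, chosen with earlier results of these data known. Of these, 15 had at least 1 region and CRTC, CaMKII and bsk had none, with 58 regions in all. Over all 13962 protein-coding genes of the RefSeq gene table, 2750 (19.7%) had a region. The list was picked for its known ties to CREB and with earlier results in view, so that this difference in shares is a description only. Among the upstream regulators, 5 of 7 genes had regions, read against the same 19.7%. CrebB-17A, which encodes CREB itself, had 6 regions with strongest scores of 9.19 for CRTC and 8.02 for CREB, and nej, the gene of the coactivator CBP, had 5 regions with 9.44 and 10.4. The gene of the calcineurin subunit CanA-14F had 2 regions. Mef2 and bs, the fly homologue of serum response factor, had 1 region each.

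Of the 5 genes of the JNK and AP-1 pathway, 4 had regions, beside the 19.7% of all protein-coding genes. puc, a phosphatase that switches off JNK, had 3 regions and the highest scores of this group, 11.9 for CRTC and 11.6 for CREB. hep, the kinase that activates JNK, had 2 regions with strongest scores of 3.99 and 2.86, while bsk, the fly JNK, had none. Atf3 and Atf-2, basic leucine zipper genes, had 1 region each.

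All 6 genes of the remaining group, other activity- or stress-induced transcription factors, had regions, again beside 19.7% of all protein-coding genes. CrebA, a basic leucine zipper factor of the secretory pathway, had the highest scores of the list, 31.7 for CRTC and 43.0 for CREB, which ranked 10 and 9 in their lists, but only 3 regions. crc, the fly ATF4, also had 3 regions, with strongest scores of 15.1 and 24.1. Pdp1, a clock factor, had 13 regions and Xrp1 8 regions, more than kay, while their strongest CRTC scores of 12.2 and 8.95 were below that of kay. cbt had 4 regions, as Hr38 and sr did, and vri had 5. The median of the strongest CRTC score was 7.46 over the 15 related genes with regions, against 5.18 over all genes in the table, and for CREB it was 7.68, against 5.15. The related genes with regions had a median of 3 regions each, against 1 over all genes, and the highest of several scores tends to exceed a single one. The part of this in the difference was not tested.

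**Figure D4:**
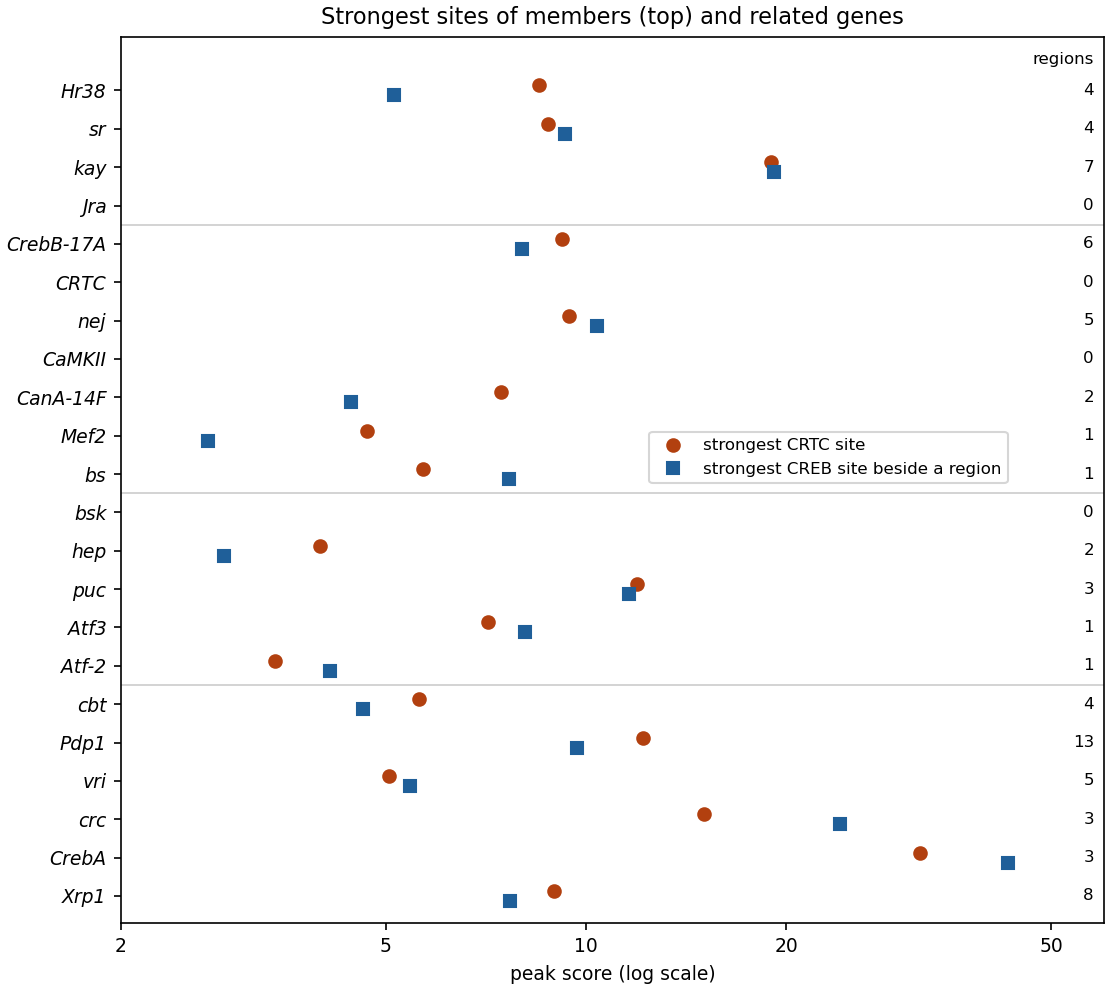
Scores of the strongest CRTC-binding site (circles) and of the strongest CREB-binding site beside a region (squares), on a log axis, for the 4 members at the top and the 18 related genes in their 3 groups below. The number of regions is at the right, and genes with 0 regions have no symbols.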

How the data were processed

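Per the labels, reads of CREB and CRTC ChIP-seq libraries and of input DNA were mapped to dm3. The authors filtered them, called peaks against input DNA with PICS and ERD, and kept peaks found in at least 2 of 3 replicates. The deposited site lists give a score and a false discovery rate for each site, made by the authors. The deposited table gives for each CREB/CRTC region a gene and a distance to the TSS. It also holds fold changes and adjusted p-values of the authors' own comparison of spaced-trained and naive flies, made with DESeq2 in 1 kb windows, which were not used or printed. Read counts per library were not analysed here, so that this comparison was not repeated.

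Sites were paired at a gap of at most 200 bp between nearest edges with Python 3.11.15, pandas 2.3.3 and NumPy 2.4.6. SciPy 1.17.1 gave Wilson intervals for the alternatives, which are not given here. Matplotlib 3.10.9 drew the plots. The search was tested on simulated sites. A TSS was derived from each distance in the orientation in which neighbouring regions of a gene gave the same TSS. Percentages of lower-scoring sites were computed within each list. Of the 2833 gene symbols, 2303 are symbols and 520 only synonyms in the RefSeq gene table (Release 6), which was used for names and gene order. The members, the related genes, the 3 genes most like Hr38 and the alternatives were named by a rule set with earlier results of these data known. DNA sequences and motifs were not analysed here.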

Additional observations from a re-analysis of the deposited data

How the results depend on the processing

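Of the 15 member regions, 12 had at least 50% of their length covered by a CREB-binding site. The limit of 200 bp defines a region and so tests nothing. With CRTC scores in the upper 50% of the list, Hr38 had 2 regions. With a false discovery rate of at most 0.001, Hr38 had 1, sr 1 and kay 4 regions. At sr this limit dropped the region with the strongest CRTC score (8.78, false discovery rate 0.00106). It kept a weaker region (6.86, false discovery rate 0.000665). With a width of at least 100 bp, sr had 2 and kay 3. The strongest CRTC score exceeded 79.9% (Hr38) and 81.4% (sr) of the sites in the table, and 71.8% (Hr38), 73.8% (sr) and 96.9% (kay) of sites at least 100 bp wide. The strongest CREB score exceeded 57.2% (Hr38), 80.7% (sr) and 96.7% (kay) of CREB-binding sites near CRTC, and 40.6%, 70.6% and 94.6% of sites at least 100 bp wide. With regions within 5000 bp of a TSS alone, Hr38 kept 2 and sr 3 regions, and 1024 and 415 genes had at least as many. Counted in 1 kb windows, where the promoter regions of sr fall into 1, 434 genes had at least as many as sr and 30 as kay. Site numbers within 5 and 20 kb were those within 10 kb or 1 more. Members matched by synonym, added after the data were seen, changed no count. No paired analysis was possible because the lists hold no values per library, and for the same reason no replicate could be left out. Without read depths, weak binding below the peak threshold was not detectable.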
